A study of Rattus norvegicus with 4 samples.

Results

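The genes described here are those of the tricarboxylic acid (TCA) cycle, of pyruvate entry into it, of its refilling (anaplerosis) and of the shuttles that carry metabolites and reducing equivalents across the inner mitochondrial membrane. They were chosen by name: 36 of the 37 listed symbols were found among the 23360 gene symbols of the files, and Ogdh was not matched by symbol and was not analysed here. All 36 passed the filter on low values. The RNA came from 4 cultures of INS-1 832/3, rat insulinoma cells with an added human insulin gene that are kept under Geneticin selection, and was taken after 5 days at passage 3. There were 2 cultures in standard 2D monolayer and 2 cultures 3D-bioprinted in GelXA LAMININK 411, a gelatin-based hydrogel with laminin that is cured with light. All 4 cultures were kept in the same RPMI-1640 medium with fetal bovine serum and added sodium pyruvate. The model is 1 tumor-derived line, and printing, curing and growth in the gel came together in the 3D cultures, so that their effects cannot be told apart. The labels call the cultures biological replicates without saying how they were separated, and p-values measure only the spread between these cultures.

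Pyruvate made by glycolysis crosses the inner mitochondrial membrane through a carrier formed by MPC1 and MPC2. Pyruvate dehydrogenase then turns it into acetyl-CoA for oxidation, while pyruvate carboxylase turns it into oxaloacetate, a route for which beta cells are known. Beta cells make little lactate and rely on the malate-aspartate and glycerol phosphate shuttles to return cytosolic reducing equivalents to the mitochondrion, and the citrate, malate and 2-oxoglutarate that leave the mitochondrion have been linked to insulin secretion.

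The values are TPM, transcript abundances per length scaled by the authors to the same total in every sample, so levels of different genes can be compared within a culture, but TPM keep no sequencing depth and no counting error can be attached. Of 10 markers of beta cells, all had a mean of at least 1 TPM, with a summed level from 147297 to 170182 TPM. Of 4 exocrine markers matched, 3 were at 0 in every culture and the sum was at most 0.130 TPM. Of 7 endothelial, stromal and blood markers matched, 3 (Cdh5, Pdgfrb and Ptprc) were at 0, and the sum ran from 1.53 to 1.77 TPM in monolayer and from 2.16 to 2.95 TPM in 3D. The 5 markers of other islet cells summed to 42.2 and 74.4 TPM in monolayer, against 125 and 156 TPM in 3D, nearly all of it Gcg, with Ghrl at 0. Transcripts of the mitochondrial genome took 10.1% and 9.35% of TPM in monolayer against 13.0% and 12.3% in 3D. The part of these differences, in beta cell and other islet markers and in mitochondrial transcripts, in the results below was not tested. In such bulk samples, fewer cells of a type and less RNA per cell cannot be told apart.

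Levels of the 36 genes ran over a wide range. The cytosolic malate dehydrogenase Mdh1 stood highest, with 473 and 477 TPM in monolayer against 420.0 and 441 TPM in 3D, followed by its mitochondrial counterpart Mdh2. The malic enzyme Me3 was lowest, with 7.51 and 7.08 TPM in monolayer against 5.41 and 6.51 TPM in 3D. Together the 36 genes took 3224 and 3117 TPM in the monolayer cultures and 2882 and 2933 TPM in the 3D cultures, or 0.317% and 0.291% of all TPM on average. The 3D cultures were both lower, by 8.29% of the monolayer mean (exact permutation test, two-sided, p = 0.333, the smallest value that 2 cultures against 2 allow). Of the 4 role groups, the cycle enzymes differed most in sum, with 1446 and 1382 TPM in monolayer against 1220 and 1249 TPM in 3D. Shuttle enzymes and carriers summed to 997 and 980 TPM in monolayer against 949 and 967 TPM in 3D, a smaller gap.

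**Figure D1:**
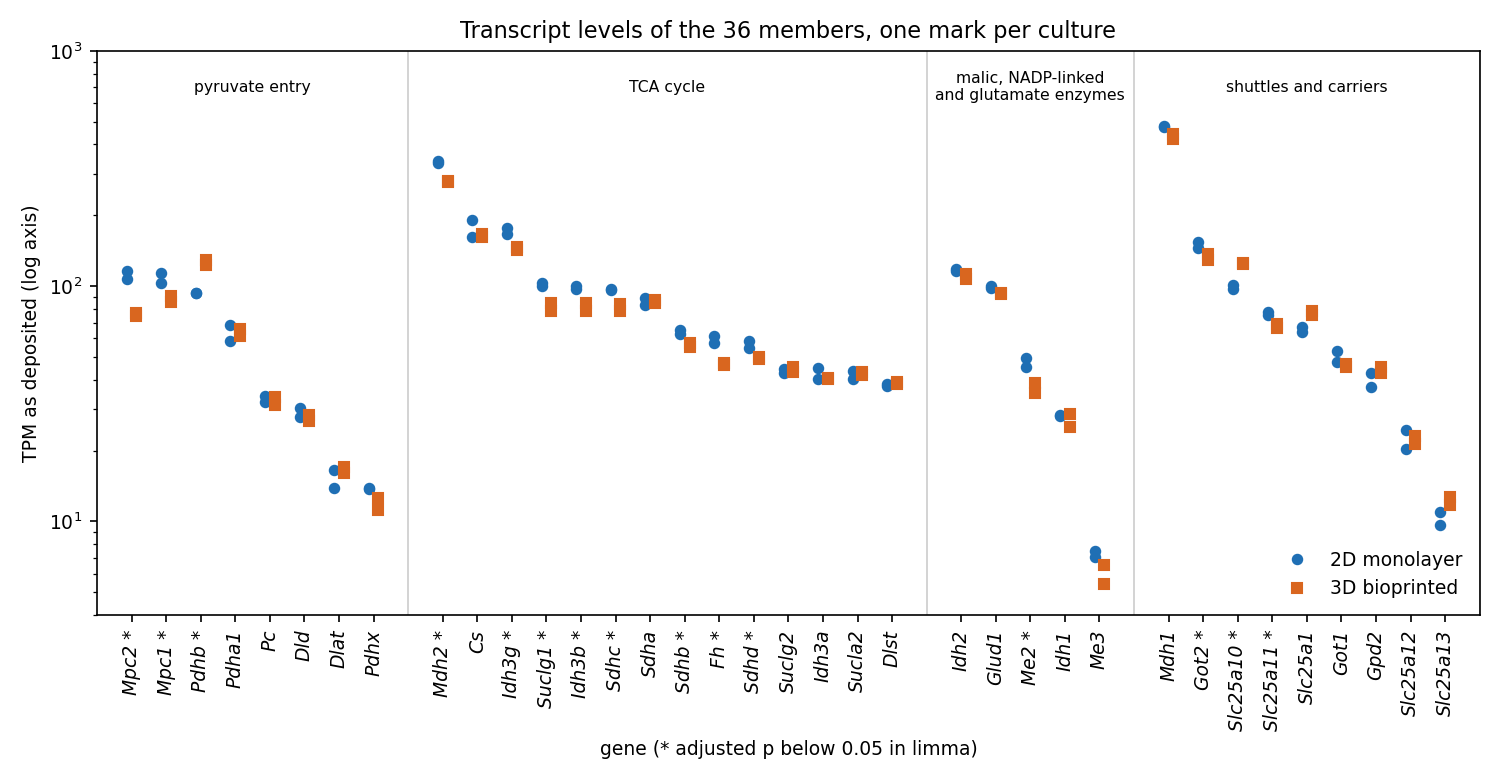
TPM of each gene as deposited, on a log axis, in the 2 monolayer cultures (blue circles) and the 2 bioprinted cultures (orange squares), with genes grouped by role and ordered by monolayer mean. An asterisk marks the 15 genes with an adjusted p below 0.05. Mdh1 is highest near 475 TPM and Me3 lowest, and the 2 groups of the pyruvate carrier gene Mpc2 and of Pdhb lie apart in opposite directions.

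Of the 36 genes, 15 differed between 2D and 3D culture with an adjusted p below 0.05 in limma (41.7%), where 38.0% of the 11960 genes tested did. The share of genes that changed at all was therefore near that of the whole transcriptome, and the members stood apart in direction: 13 fell (36.1%) against 19.5% of all genes, and 2 rose (5.56%) against 18.5%. The estimate was negative for 30 of the 36, and for 50.5% of all genes tested. On TPM without scaling, 32 of the 36 kept their sign, and Pdha1, Dlst, Sucla2 and Suclg2 turned positive. The median log2 fold change of the 36 genes, 3D minus 2D, was -0.14 in the main fit, beside -0.0031 over all genes tested. The changes were small, from -0.59 for Mpc2 to 0.38 for Pdhb. The 2 cultures of a group differed by a median of 0.074 in monolayer and 0.062 in 3D on the same log2 scale, and the groups by a median of 0.19. After scaling between samples, the groups did not overlap in 29 of the 36 genes (80.6%), near the 75.5% of all genes. Fold changes here are of scaled TPM plus 1, while the TPM given per culture are as deposited, on which 25 genes did not overlap. With all cultures, 22 members had an unadjusted p below 0.05 in limma, beside 50.6% of all genes. The calls rest on both 3D cultures. With either left out, calls were lost over the whole transcriptome as well as among the members, and 1 culture then stands for its group. The median log2 fold change of the members was -0.14 without 3D replicate 1 and -0.15 without 3D replicate 2. It was -0.16 without monolayer replicate 1 and -0.15 without monolayer replicate 2. At an adjusted p below 0.01, 3 of the 36 passed (Mpc2, Fh and Pdhb), beside 11.9% of all genes. All 15 genes called kept their direction in each of the 15 other settings, but this was largely fixed beforehand. The stricter threshold, the empirical Bayes options and the replicate block leave the estimate unchanged. The groups did not overlap in any gene called, so leaving out 1 culture could hardly turn its sign. On TPM without scaling between samples, 9 members fell and 3 rose, where 15.2% of all genes fell and 18.9% rose.

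**Figure D2:**
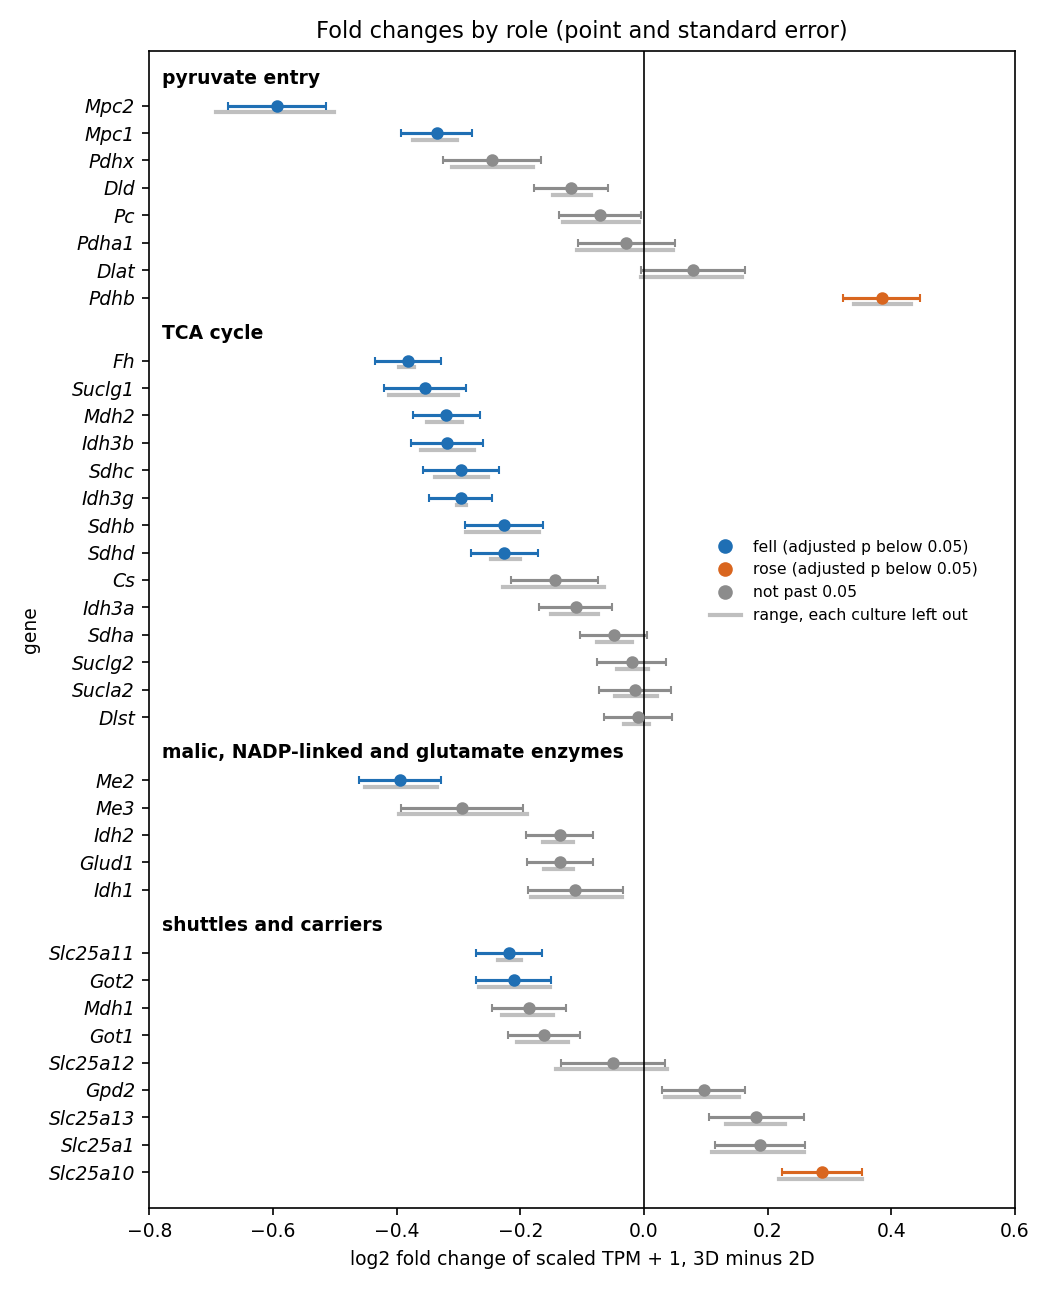
Log2 fold change of scaled TPM plus 1, 3D minus 2D, for the 36 genes by role. Points with bars are estimates with standard errors from limma, colored where the adjusted p was below 0.05 (13 blue falls, 2 orange rises), and the grey line under each point spans the values with each culture left out in turn. All 14 cycle genes lie below 0.

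Among the 8 genes of pyruvate entry, both subunits of the mitochondrial pyruvate carrier fell and 1 subunit of pyruvate dehydrogenase rose. Mpc2 had 107 and 116 TPM in the monolayer cultures and 77.0 and 74.4 TPM in the 3D cultures. Both 3D values lay well below both monolayer values, at a fold of 0.663 (log2 fold change -0.59, standard error 0.079, adjusted p = 0.0065). Its partner Mpc1 went from 114 and 103 TPM to 85.9 and 91.1 TPM (log2 fold change -0.34, standard error 0.058, adjusted p = 0.011). Neither group overlapped the other for either gene. Pdhb encodes the beta subunit of the decarboxylase of pyruvate dehydrogenase, and it moved the other way. It had 93.5 and 93.9 TPM in monolayer against 129 and 123 TPM in 3D, a fold of 1.31 (log2 fold change 0.38, standard error 0.062, adjusted p = 0.0097). This was the largest rise of the 36 genes. The alpha subunit Pdha1, which forms a tetramer with it, had 68.3 and 58.2 TPM in monolayer against 66.0 and 61.5 TPM in 3D, so that its 3D values lay within the monolayer range (log2 fold change -0.029, adjusted p = 0.79, with a positive estimate on TPM without scaling). The ratio of Pdhb to Pdha1 was 1.37 and 1.61 in monolayer and 1.96 and 2.01 in 3D. The acetyltransferase Dlat, which forms the core of the complex, and the dehydrogenase Dld, which the complex shares with the 2-oxoglutarate dehydrogenase, did not pass, with log2 fold changes of 0.080 and -0.12. Pdhx, which binds Dld to the core, had 13.8 and 13.9 TPM in monolayer against 11.2 and 12.6 TPM in 3D (log2 fold change -0.25, adjusted p = 0.057). It passed in 1 of the 14 other settings at 0.05, when the replicate number entered as a block (adjusted p = 0.046).

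The promoters of the gene with the largest fall and of the gene with the largest rise are shown here as the sequence context of both ends of the range. They are the 250 bases before the annotated start, 5′ to 3′, from RefSeq on the GRCr8 build, in which 34 of the 36 genes were matched. Capitals mark matches on either strand to the letters CCGGAAG (the core bound by ETS factors), CCAAT (the CCAAT box) and CACGTG (an E-box).
Mpc2, chr13:80261006-80261255, plus strand: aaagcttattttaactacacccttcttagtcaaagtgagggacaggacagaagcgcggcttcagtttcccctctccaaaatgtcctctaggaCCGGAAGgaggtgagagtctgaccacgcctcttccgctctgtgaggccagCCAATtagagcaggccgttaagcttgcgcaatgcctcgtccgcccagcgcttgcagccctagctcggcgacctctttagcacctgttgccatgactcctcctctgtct
Pdhb, chr15:19182539-19182788, plus strand: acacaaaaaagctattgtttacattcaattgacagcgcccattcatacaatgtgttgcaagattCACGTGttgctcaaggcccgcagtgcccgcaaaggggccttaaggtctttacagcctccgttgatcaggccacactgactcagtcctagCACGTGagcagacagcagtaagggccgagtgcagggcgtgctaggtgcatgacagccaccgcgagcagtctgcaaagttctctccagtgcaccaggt
The Mpc2 window holds CCGGAAG from 158 to 152 bases before the start and 1 CCAAT box, and no E-box. The Pdhb window holds 2 E-boxes, which begin 186 and 97 bases before the start, and no match to the other letters. Across the members, CCGGAAG was found in the windows of 6 of the 13 genes that fell (Mpc2, Idh3b, Idh3g, Sdhb, Sdhd and Mdh2), in 2 of 19 that were not called and in neither gene that rose. The same letters were in 15.6% of the windows of genes tested and in 7.27% of all 33469 windows. An E-box was in 1 member's window, that of Pdhb, and in 8.28% of the windows of genes tested. CCAAT was in 17 of the 34 windows and in 35.4% of those of genes tested. The 6 motifs searched were chosen after the fold changes were known, and a match is a description of letters.

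Pyruvate carboxylase, encoded by Pc, had 34.1 and 32.3 TPM in monolayer against 33.7 and 31.4 TPM in 3D, values that overlapped as deposited (log2 fold change -0.071, standard error 0.066, adjusted p = 0.42). The ratio of Pc to Pdha1, the carboxylase against 1 subunit of the oxidative enzyme, was 0.499 and 0.554 in monolayer and 0.510 in both 3D cultures. Pdhb, the partner subunit, rose from 93.5 and 93.9 TPM to 129 and 123 TPM. The overlap of this ratio therefore depends on the subunit chosen and does not describe the whole oxidative route. The gene sum covers 3 listed transcripts that did not run in parallel. ENSRNOT00000026316.6 carried 94.8% and 96.8% of the gene's TPM in monolayer against 84.7% and 85.9% in 3D, and went from 32.3 and 31.2 TPM to 28.5 and 26.9 TPM. ENSRNOT00000082388.1 had 0 and 1.03 TPM in monolayer against 3.82 and 2.67 TPM in 3D. In a fit over the 15020 transcripts with a mean of at least 1 TPM, neither passed (adjusted p = 0.053 and 0.060). With the most abundant transcript taken for each gene in place of the sum, Pc passed (log2 fold change -0.23, adjusted p = 0.046). How short reads are divided among transcripts of 1 gene is an estimate of the quantification.

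All 14 genes of the cycle proper had negative estimates, and 8 fell. Fumarase, encoded by Fh, went from 61.5 and 57.4 TPM to 46.2 and 47.4 TPM, a fold of 0.768 (log2 fold change -0.38, standard error 0.053, adjusted p = 0.0070). Mdh2, which closes the cycle by making oxaloacetate, had 339 and 335 TPM in monolayer against 278 in both 3D cultures. The cultures of each group were nearly equal, and the difference passed the test (log2 fold change -0.32, standard error 0.054, adjusted p = 0.011). Citrate synthase (Cs), which opens the cycle, had 191 and 162 TPM in monolayer against 161 and 166 TPM in 3D. As deposited, its monolayer cultures differed more from each other than the group means did (log2 fold change -0.14, adjusted p = 0.15), and without monolayer replicate 2 the estimate was -0.23 with an adjusted p of 0.043. Dlst, the succinyltransferase of the 2-oxoglutarate dehydrogenase complex, had 38.4 and 37.6 TPM in monolayer against 38.6 and 39.3 TPM in 3D (log2 fold change -0.0091, adjusted p = 0.91), and its sign depended on the scaling.

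Genes for subunits of 1 enzyme did not all pass the test together. The NAD-dependent isocitrate dehydrogenase has a catalytic alpha subunit (Idh3a) and the subunits beta and gamma. Idh3g went from 177 and 167 TPM to 142 and 146 TPM (log2 fold change -0.30, standard error 0.050, adjusted p = 0.011). Idh3b went from 100.1 and 97.1 TPM to 78.2 and 84.4 TPM (log2 fold change -0.32, standard error 0.058, adjusted p = 0.013). Both fell without overlap between the groups. Idh3a, the least abundant of the 3, had 44.8 and 40.3 TPM in monolayer against 40.7 and 40.3 TPM in 3D (log2 fold change -0.11, adjusted p = 0.19). Its groups overlapped as deposited, but not after scaling. The ratio of Idh3a to Idh3b, planned beforehand, was 0.448 and 0.415 in monolayer and 0.521 and 0.477 in 3D, without overlap. That of Idh3g to Idh3a was 3.94 and 4.15 in monolayer and 3.49 and 3.62 in 3D.

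Succinyl-CoA synthetase pairs the alpha subunit Suclg1 with either Sucla2, which makes the enzyme form ATP, or Suclg2, which makes it form GTP. Suclg1 went from 100.1 and 103 TPM to 78.4 and 84.8 TPM, a fold of 0.782 (log2 fold change -0.35, standard error 0.066, adjusted p = 0.014). Neither beta subunit passed, and the sign of both depended on the scaling. Sucla2 had 43.5 and 40.1 TPM in monolayer against 43.3 and 41.9 TPM in 3D (log2 fold change -0.014, adjusted p = 0.86). Suclg2 had 44.3 and 42.7 TPM in monolayer against 43.1 and 45.4 TPM in 3D (log2 fold change -0.020, adjusted p = 0.79). The ratio of Sucla2 to Suclg2 was 0.981 and 0.940 in monolayer and 1.01 and 0.924 in 3D, while that of Suclg1 to Sucla2 was 2.30 and 2.56 in monolayer and 1.81 and 2.02 in 3D.

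Succinate dehydrogenase, which is also complex II of the respiratory chain, showed a like split. The iron-sulfur subunit Sdhb went from 62.8 and 64.9 TPM to 55.1 and 57.1 TPM (log2 fold change -0.23, standard error 0.063, adjusted p = 0.039). The membrane anchors Sdhc and Sdhd went from 96.7 and 96.9 TPM to 78.1 and 84.2 TPM and from 58.2 and 54.8 TPM to 50.1 and 49.2 TPM (log2 fold changes -0.30 and -0.23, adjusted p = 0.018 and 0.026). All 3 were lower in both 3D cultures than in both monolayer cultures. The flavoprotein Sdha, which binds succinate, had 89.0 and 83.5 TPM in monolayer against 86.9 and 84.8 TPM in 3D (log2 fold change -0.049, adjusted p = 0.49), and its 3D values lay within the monolayer range as deposited, but not after scaling. The ratio of Sdhd to Sdha was 0.653 and 0.657 in monolayer and 0.576 and 0.580 in 3D. The ratios of Pdhb to Pdha1, Idh3g to Idh3a, Suclg1 to Sucla2 and Sdhd to Sdha were picked after the fold changes were known, and no ratio between subunits carries a test. Sdhb passed in 9 of 14 other settings at 0.05, and not on TPM without scaling (adjusted p = 0.051) or without monolayer replicate 2 (0.086). Sdhd passed in 11 of 14, and not on TPM without scaling (0.060).

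The promoters of a subunit that fell and of the flavoprotein subunit are shown for comparison, as above, with capitals for the same letters and, in addition, for the site of NRF1, a regulator of nuclear genes for mitochondrial proteins (read as its palindrome with any base in the middle).
Sdhd, chr8:59850642-59850891, minus strand: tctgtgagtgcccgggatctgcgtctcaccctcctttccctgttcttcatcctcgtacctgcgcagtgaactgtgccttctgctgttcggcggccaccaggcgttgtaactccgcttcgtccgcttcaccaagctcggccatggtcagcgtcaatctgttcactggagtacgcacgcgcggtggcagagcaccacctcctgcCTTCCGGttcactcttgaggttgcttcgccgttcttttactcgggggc
Sdha, chr1:30764303-30764552, plus strand: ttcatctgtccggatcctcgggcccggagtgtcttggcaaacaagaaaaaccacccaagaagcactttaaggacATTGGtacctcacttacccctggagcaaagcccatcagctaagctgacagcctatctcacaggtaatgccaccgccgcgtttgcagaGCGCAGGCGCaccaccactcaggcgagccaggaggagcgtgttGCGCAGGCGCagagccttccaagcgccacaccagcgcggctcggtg
The Sdhd window holds CCGGAAG on the opposite strand from 48 to 42 bases before the start. The Sdha window holds 2 NRF1 sites, which begin 89 and 46 bases before the start, and a CCAAT box on the opposite strand. An NRF1 site was in 2 of the 34 windows, those of Sdha and Sucla2, neither of which passed the test, and in 9.27% of the windows of genes tested. The letters AAGGTCA, bound by estrogen-related receptors, were in no member's window and in 2.47% of those of genes tested. TGACGTCA, the cAMP response element, was in the window of Mdh2 and in 2.86% of those of genes tested.

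**Figure D3:**
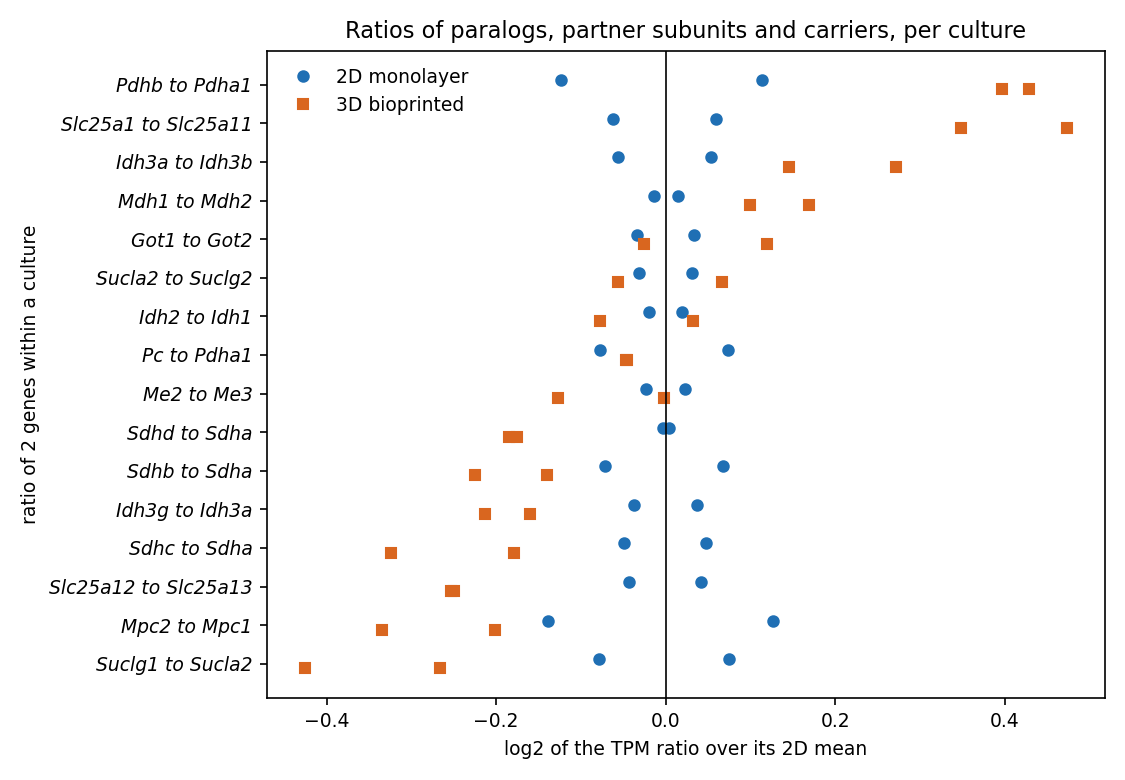
Ratios of TPM of 2 genes within each culture, drawn as log2 of the ratio over its monolayer mean (blue circles, monolayer; orange squares, 3D). The 3D cultures lie apart from the monolayer cultures for Pdhb to Pdha1 on the right and for Suclg1 to Sucla2 and the complex II ratios on the left, while those of Sucla2 to Suclg2 and Pc to Pdha1 overlap. The ratios named as apart were picked after the fold changes were known, so their separation is no support. Idh3g to Idh3a, Mpc2 to Mpc1 and Slc25a1 to Slc25a11 were also picked then. Those named as overlapping were planned. So were Slc25a12 to Slc25a13, Mdh1 to Mdh2 and Idh3a to Idh3b, whose groups lie apart.

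Of the malic, NADP-linked and glutamate enzymes, 1 of 5 fell, a share near the 19.5% of all genes that fell. The others had negative estimates that did not pass. Me2, the mitochondrial malic enzyme that uses NAD and returns malate carbon to pyruvate, went from 49.4 and 45.2 TPM to 35.0 and 38.7 TPM, a fold of 0.761 (log2 fold change -0.39, standard error 0.066, adjusted p = 0.010). Its NADP-linked mitochondrial relative Me3, whose values are given above, did not pass (log2 fold change -0.29, standard error 0.099, adjusted p = 0.063). The ratio of Me2 to Me3 ran from 5.94 to 6.59 with no separation of the groups. Of the isocitrate dehydrogenases that make NADPH, the mitochondrial Idh2 had 118 and 116 TPM in monolayer against 107 and 112 TPM in 3D (adjusted p = 0.096), and the cytosolic Idh1 had 28.0 and 28.3 TPM in monolayer against 25.2 and 28.5 TPM in 3D (adjusted p = 0.28). The ratio of Idh2 to Idh1 was 4.21 and 4.10 in monolayer and 4.25 and 3.94 in 3D. Glutamate dehydrogenase (Glud1), which feeds 2-oxoglutarate into the cycle, had 100.1 and 98.3 TPM in monolayer against 93.4 and 92.4 TPM in 3D. The 2 groups did not overlap, and the difference did not pass (log2 fold change -0.14, adjusted p = 0.094).

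Genes of the malate-aspartate shuttle had mostly small negative estimates. The 2-oxoglutarate/malate carrier Slc25a11 went from 77.8 and 75.5 TPM to 66.3 and 69.2 TPM (log2 fold change -0.22, standard error 0.053, adjusted p = 0.027). It passed in 9 of 14 other settings at 0.05, and not on TPM without scaling (adjusted p = 0.055), without the intensity trend (0.052) or without monolayer replicate 2 (0.059). The mitochondrial aspartate aminotransferase Got2 went from 154 and 145 TPM to 137 and 129 TPM (log2 fold change -0.21, standard error 0.061, adjusted p = 0.043), and it passed in 6 of the 14 other settings at 0.05, the fewest of the genes called. Their cytosolic partners did not pass. For Mdh1, the most abundant gene above, the adjusted p was 0.058 (log2 fold change -0.19) and, without monolayer replicate 1, 0.045. Got1 went from 52.8 and 47.4 TPM to 45.2 and 46.8 TPM, a difference that did not pass (log2 fold change -0.16, adjusted p = 0.078). The ratio of Mdh1 to Mdh2 was 1.39 and 1.42 in monolayer and 1.51 and 1.58 in 3D, without overlap, while that of Got1 to Got2 overlapped.

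The aspartate/glutamate carriers of the same shuttle are a pair of calcium-regulated paralogs. Slc25a12 (aralar) had 24.5 and 20.4 TPM in monolayer against 21.3 and 23.1 TPM in 3D (log2 fold change -0.050, adjusted p = 0.66), and Slc25a13 (citrin) had 11.0 and 9.71 TPM in monolayer against 11.7 and 12.7 TPM in 3D (log2 fold change 0.18, adjusted p = 0.11). Neither passed. Their ratio was 2.23 and 2.10 in monolayer and 1.82 in both 3D cultures, a log2 difference of -0.25 beside a pooled SD of 0.042 (n = 2 per group), and a permutation test of it cannot go below 0.333.

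The citrate carrier Slc25a1 and the dicarboxylate carrier Slc25a10 had positive estimates, unlike the 2-oxoglutarate/malate carrier Slc25a11 above. Slc25a10, the dicarboxylate carrier that exchanges malate or succinate for phosphate, had 97.2 and 101 TPM in monolayer against 126 and 125 TPM in 3D, a fold of 1.22 (log2 fold change 0.29, standard error 0.065, adjusted p = 0.022). This was the second of the 2 genes that rose. It passed in 11 of 14 other settings at 0.05, not without the expression filter and not with either 3D culture left out. Slc25a1, the citrate carrier, had 63.6 and 67.1 TPM in monolayer against 78.5 and 75.2 TPM in 3D, groups that did not overlap (log2 fold change 0.19, standard error 0.072, adjusted p = 0.090). It passed in 2 of 14 other settings, on TPM without scaling and without monolayer replicate 2. Gpd2, the mitochondrial glycerol-3-phosphate dehydrogenase of the glycerol phosphate shuttle, had 42.7 and 37.3 TPM in monolayer against 42.9 and 45.3 TPM in 3D (log2 fold change 0.097, adjusted p = 0.29). It is listed with 3 transcripts, of which ENSRNOT00000044419.4 went from 7.02 and 5.31 TPM to 8.48 and 9.68 TPM (adjusted p = 0.073 over transcripts).

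The files list 47 transcripts for the 36 genes, 1 each for 27 of them. Of the 44 transcripts tested, 11 passed an adjusted p of 0.05 in limma, a share near the 23.5% of all transcripts tested. All 11 fell. The shares of all transcripts that fell or rose are not reported here, so this direction has no background beside it. Pdhb is split over ENSRNOT00000010545.4, with 56.0 and 64.8 TPM in monolayer against 83.7 TPM in both 3D cultures, and ENSRNOT00000083212.1, with 37.4 and 29.0 TPM in monolayer against 45.8 and 39.6 TPM in 3D. Each was higher in both 3D cultures, and neither passed alone (adjusted p = 0.058 and 0.16). The 2 transcripts of Idh2 had estimates of opposite sign, with log2 fold changes of -0.20 for the one that carries most of the gene and 0.20 for the other, neither past 0.05.

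Other genes of the pathway were read from 5 lists of 44 symbols, of which 39 genes were tested, 8 fell and 3 rose. The share called was 28.2%, beside 38.0% of all genes, and the median log2 fold change was -0.086. The largest change was that of Gpd1, the cytosolic partner of Gpd2 in the glycerol phosphate shuttle. It had 32.4 and 36.1 TPM in monolayer against 78.2 and 83.4 TPM in 3D (log2 fold change 1.17, standard error 0.087, adjusted p = 0.0035), and it passed in all 14 other settings at 0.05. Of the kinases that switch pyruvate dehydrogenase off, Pdk1 rose (log2 fold change 0.58, adjusted p = 0.018) from 17.7 and 15.2 TPM to 28.7 and 23.1 TPM, and Pdk3 fell (-0.38, adjusted p = 0.012). The cytosolic enzymes Me1 and Aco1 fell (-0.28 and -0.27), and neither passed on TPM without scaling (adjusted p = 0.065 and 0.068). The mitochondrial coenzyme A carrier Slc25a42 fell (-0.52), as did Lipt2, an enzyme of lipoyl cofactor synthesis (-0.47), and D2hgdh, a 2-hydroxyglutarate dehydrogenase (-0.36), which passed in 6 of 13 other settings at 0.05. With either 3D culture left out, Gpd1 alone (without replicate 1) or Gpd1 and Pdk1 (without replicate 2) passed, and 4 passed without monolayer replicate 2.

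Set beside gene lists of neighboring pathways, the 36 genes held an intermediate place. Of 37 nuclear subunits of complex I, 28 fell and 1 rose, with a median log2 fold change of -0.33. Of 37 subunits of complexes III and IV and ATP synthase, 32 fell and none rose (median -0.38), and of 74 mitochondrial ribosomal proteins 51 fell and none rose (median -0.31). Of 15 glycolysis genes, 9 rose and none fell (median 0.47). The cycle enzymes alone had a median of -0.23, and the shuttles and carriers of -0.050. No test compared these lists. With 3D replicate 1 left out, most calls were lost in each of these lists, as they were over all genes. With 3D replicate 2 left out, the same held except for glycolysis, where most calls stayed. Such fits leave 1 culture in the 3D group.

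**Figure D4:**
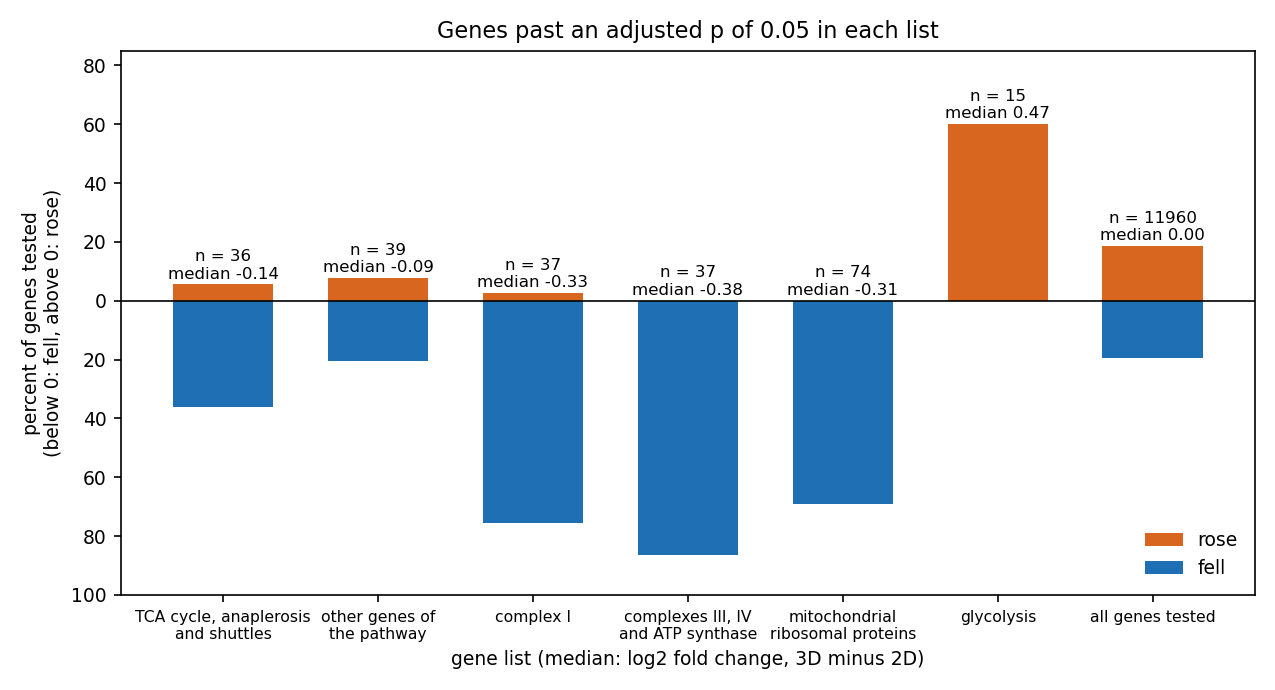
Percent of the genes tested in each list that rose (orange, above 0) or fell (blue, below 0) in 3D culture with an adjusted p below 0.05, with the number tested and the median log2 fold change over each bar. Of the 36 genes described here 36.1% fell and 5.56% rose, between the lists of the respiratory chain, where most fell, and all genes tested, where 19.5% fell and 18.5% rose.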

How the data were processed

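Single-end reads of stranded mRNA libraries from the 4 cultures had been checked by the authors with FastQC 0.11.8 and quantified by transcript with Salmon 1.2 (rn4, with human insulin added). Deposited TPM are normalized for length and sum to 1000000 per sample; they were written with decimal commas and entered as another unit. The authors' count-based DESeq2 test was not repeated, since TPM are not counts.

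TPM were summed per symbol, genes with a mean of at least 1 TPM were kept, samples were scaled by the trimmed mean of M values without weights (trimming 30% of M, 5% of A; factors 0.960 to 1.02), and log2(TPM + 1) was tested two-sided with limma 3.58.1 (intensity trend) in R 4.3.3, with Benjamini-Hochberg adjustment over 11960 genes and a threshold of 0.05. Groups came from the sample titles. The steps were tested on simulated data. The members, lists and named genes were chosen with earlier results of these data known. Values per culture were to be given for called members among the 8 largest changes in each direction, the most abundant member of each role, ratio partners and members whose call changed, and at most 3 pathway genes per list and direction were to be named. Some pathway genes counted in the lists are not reported here by name. Deviations of same-numbered cultures correlated at -0.0060 over genes. This gave no sign that the numbers pair the cultures, but 1 correlation cannot exclude it, and the labels do not say. TPM keep no depth: precision is that of 2 cultures per group. Alternatives were scaling, filter, pseudocount, empirical Bayes options, replicate block, threshold, transcript choice and each culture left out. Sequences are from RefSeq (GRCr8), and no coordinate of the files' build was used.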

Additional observations from a re-analysis of the deposited data

How the results depend on the processing

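The 15 members called kept their direction in all 15 alternatives, several of which could not turn it. Of these members, 10 passed in 12 of the 14 alternatives at 0.05, and the 2 missed were the fits without a 3D culture. Leaving out 1 culture, the members called ranged from 0 to 15, the rises from 0 to 3, the falls from 0 to 13, the median log2 fold change from -0.16 to -0.14 and the transcripts called from 0 to 11; over all genes, 136 and 1037 passed without 3D replicate 1 and 2, and 3240 and 4507 without monolayer replicate 2 and 1. These fits rest on 3 cultures and assume that the lone culture varies like the others. With the replicate number as a block, 16 members (14 falls, 2 rises), 10 transcripts and 4816 genes passed. Whether the numbers pair the cultures is not known. Without scaling, the median was -0.097 and the summed difference -263 TPM, beside -354 TPM when scaled. Without the filter, the median was -0.18 and 1 member rose; at 5 TPM the median was -0.12, and with the most abundant transcript -0.17. At 0.01, 3 passed, 1 higher and 2 lower.

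Signs that turned belonged to 6 members not called. Without scaling, the log2 fold change was 0.014 for Pdha1, 0.033 for Dlst, 0.028 for Sucla2 and 0.023 for Suclg2, and at 5 TPM 0.015 for Dlst, 0.010 for Sucla2 and 0.0048 for Suclg2. Leaving out 1 culture, it ran from -0.11 to 0.046 for Pdha1, -0.0040 to 0.16 for Dlat, -0.031 to 0.0086 for Dlst, -0.047 to 0.021 for Sucla2, -0.043 to 0.0066 for Suclg2 and -0.14 to 0.037 for Slc25a12. The log2 difference of ratios then ran from -0.055 to 0.066 for Sucla2 to Suclg2, -0.12 to 0.032 for Pc to Pdha1, -0.025 to 0.12 for Got1 to Got2 and -0.078 to 0.032 for Idh2 to Idh1, and that of Me2 to Me3 was 0.060 with the most abundant transcript. The cause was not tested. With 2 cultures per group and no depth in TPM, small differences were not resolved.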
